A study of Mus musculus with 9 samples.

Results

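Cultured mouse myoblasts (MB) grown with 10 mM lactate were compared with MB that received the vehicle alone, using 4 of the 9 libraries of the series given here. The 4 libraries were chosen by their labels, 2 for lactate and 2 for control, and libraries with the same replicate number were treated as a pair. All 4 came from primary MB of C57BL/6 mice kept on Matrigel in growth medium with horse serum, fetal bovine serum and basic fibroblast growth factor. The lactate cultures had sodium L-lactate in phosphate-buffered saline (PBS) added to that medium and the control cultures an equal amount of PBS, and no other sodium salt is named for the controls. The labels call the libraries biological replicates without saying whether same-numbered cultures shared an isolation, and they give no length of exposure beyond an overnight step. MB are single dividing cells held short of fusion, so the comparison describes proliferating precursors and not muscle fibres. The deposited values are raw read counts per Ensembl gene from Smart-seq2, a full-length cDNA protocol that amplifies RNA by PCR, here from nanogram amounts of total RNA.

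Lactate is made from pyruvate at the end of glycolysis by lactate dehydrogenase and crosses the plasma membrane through monocarboxylate transporters. In muscle it leaves working fibres, fuels oxidative cells and is turned back to pyruvate, and its acyl form can be attached to histone lysines. Myoblasts carry the fate factor MyoD, stay in the cell cycle while growth factors are present, and switch on myogenin, fusion proteins and the sarcomere when they differentiate. The study treated MB with lactate to ask whether genes with high promoter lactylation in MT would go up, and the files were examined for genes of glycolysis, the cell cycle, myogenesis, the matrix and stress responses that moved alike in both pairs.

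The 4 libraries held 5198247 to 8974146 counts, and 3 counts, taken as the floor of detection, were worth 0.348 to 0.512 CPM, counts scaled to library size. The cells carried MB markers in every library: of 7 markers listed, 6 were tested, and their summed level ran from 1393 to 2704 CPM. The fate factor Myod1 was at 1131, 678, 1283 and 763 CPM in control 1, control 2, lactate 1 and lactate 2, and Des, the muscle intermediate filament, at 721, 215, 985 and 241 CPM. Msc, another MB marker, had no count in any library. Markers of other cells were at or near 0. All 6 endothelial markers together reached 0.232 to 1.28 CPM, all 4 Schwann cell markers at most 0.342 CPM and all 5 adipocyte markers at most 0.160 CPM. Of 7 leukocyte markers only Cd14, which passed the filter, was above 5 CPM, and Ptprc, Adgre1 and Lyz2 were at 0 throughout. Fibroblast markers summed to 16.7 and 8.70 CPM in the controls and 26.0 and 8.37 CPM with lactate, nearly all of it from Ly6a, with Lum and Dpt at 0. Pericyte and smooth muscle markers summed to 274 to 447 CPM, nearly all from Acta2, which MB also make. All 5 tested transcripts of the list of ribosomal RNA and its genomic copies were higher in lactate in both pairs. Their summed level was 116691 CPM in control 1 and 186599 CPM in lactate 1, against 4689 and 5259 CPM in pair 2. The part of this rRNA in the results below was not tested beyond a fit without those genes.

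The pairs did not share a broad response to lactate. Counts of bulk RNA cannot tell fewer cells of a type from less RNA per cell, and this holds for each result. Of 11804 genes tested, 2344 (19.9%) were higher with lactate in both pairs, 2740 (23.2%) were lower in both, and 6717 (56.9%) went opposite ways. Where the values of a pair are given, the control comes before lactate. Pairwise values are log2 ratios of CPM with a prior count of 2, and their spread across genes was an SD of 0.63 in pair 1 and 0.38 in pair 2. With the size factors of DESeq2 (RLE) the split was 2827 higher against 2235 lower in both pairs, since that scaling shifts the median ratio of pair 1 by 0.10 log2. Requiring a ratio over 0.5 in size in each pair left 135 genes higher (1.14%) and 183 lower (1.55%). Both lactate libraries lay above both control libraries for 445 genes (3.77%) and below both for 939 (7.95%).

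**Figure D1:**
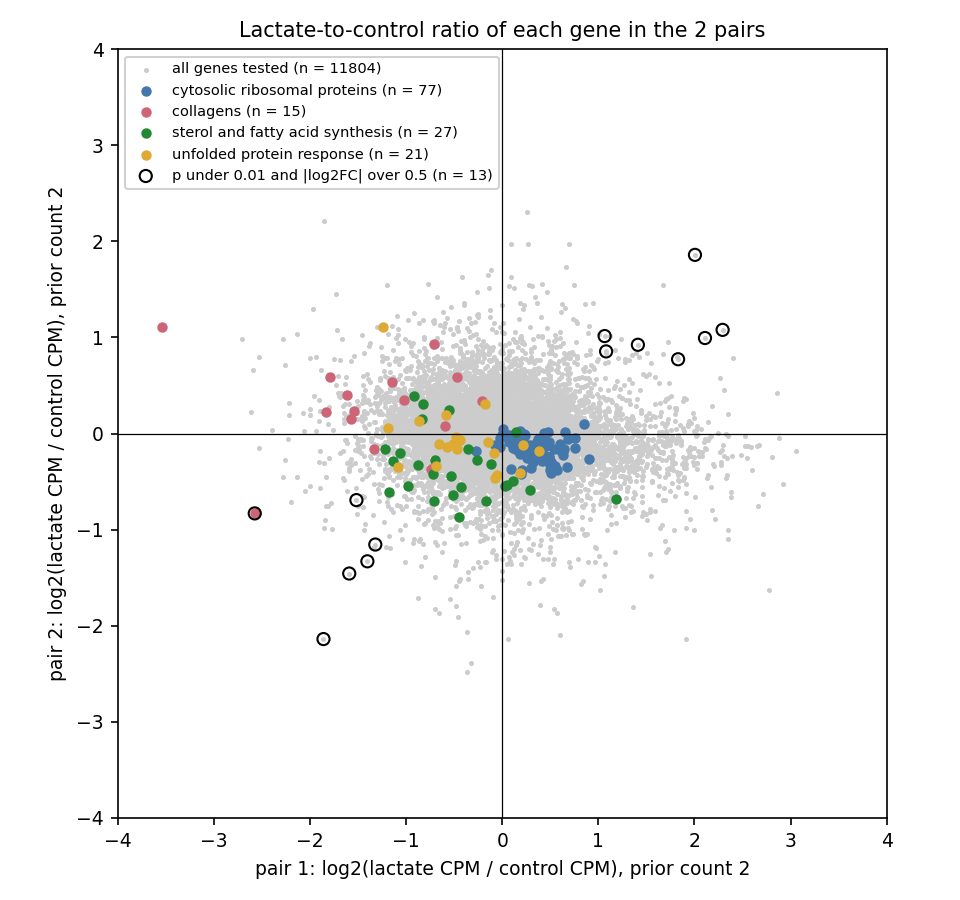
Each point is a gene; the x axis is its log2 ratio of lactate to control CPM in pair 1 and the y axis the same in pair 2, with 11804 genes tested in grey, 4 lists in colour and the 13 genes past the threshold circled. Collagens sit to the left and mostly above 0, ribosomal proteins to the right and mostly below, and the sterol list lies mainly in the lower left, where both pairs were lower.

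The test was edgeR's quasi-likelihood F test with the replicate number as a block. At the study's threshold, an unadjusted p under 0.01 with an absolute log2 fold change (log2FC) over 0.5, 7 genes were higher with lactate (0.0593% of those tested) and 6 were lower (0.0508%). At an unadjusted p under 0.05, 75 genes were higher (0.635%) and 91 lower (0.771%). No gene passed an adjusted p of 0.05 by edgeR, the smallest Benjamini-Hochberg value being 0.9999, or by DESeq2 with the same block. Without the block 0 genes passed the nominal threshold in either direction, so the 13 calls rest on the pairing by number. DESeq2 with the block called 2 of the 13, both higher, and none of the 6 lower genes. The test has 1 residual degree of freedom and borrows 8.51 from the other genes. For the 8262 genes at 10 CPM or more the median standard error (SE) of a log2FC was 0.29, so that a typical gene needed a log2FC of 0.93, or 1.91-fold, to reach an unadjusted p of 0.01. An exact permutation test of 2 against 2 libraries cannot go below a two-sided p of 0.333, and an exact sign flip of 2 pairs cannot go below 0.5.

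Of the 6 genes called lower, P4ha3 had the smallest p. P4ha3 (ENSMUSG00000051048, chr7:100285520-100319699, mm10) encodes a catalytic subunit of prolyl 4-hydroxylase, which modifies collagen in the endoplasmic reticulum. Its level was 8.78 CPM in control 1 and 10.3 in control 2 against 2.73 in lactate 1 and 3.59 in lactate 2. The groups did not overlap, and the log2FC was -1.60 (SE 0.39, edgeR adjusted p = 0.9999).

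Col12a1 (ENSMUSG00000032332, chr9:79598991-79718831), a collagen that sits on the surface of fibrils, was at 9.02 and 12.1 CPM in the controls and 1.28 and 6.66 CPM with lactate, and its log2FC was -1.63 (SE 0.49). The decrease was steeper in pair 1, where 77 counts stood against 8, than in pair 2, where 104 stood against 39. Fzd1 (ENSMUSG00000044674, chr5:4753839-4758035), a receptor for Wnt ligands, was at 5.97 and 9.86 CPM in the controls and 2.09 and 3.76 CPM with lactate, a log2FC of -1.44 (SE 0.41). Tlnrd1 (ENSMUSG00000070462, chr7:83879873-83884305), an actin-bundling protein, was at 11.2 and 11.4 CPM in the controls and 4.33 and 4.95 CPM with lactate, a log2FC of -1.28 (SE 0.36). In all 3 of these genes the lactate libraries lay below both controls, and the decreases of Fzd1 and Tlnrd1 were alike in the pairs.

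Gas1 (ENSMUSG00000052957, chr13:60174405-60177365), a membrane-anchored co-receptor for Hedgehog ligands first found in arrested fibroblasts, was at 52.0 and 17.97 CPM in pair 1 and 9.28 and 5.63 CPM in pair 2, control before lactate. Here the groups overlap, because control 2 was lower than lactate 1, and the log2FC of -1.18 (SE 0.34) is a difference within pairs only. The last of the 6, Hmgn2-ps1 (chr5:84123313-84123591), is a processed pseudogene of a nucleosome-binding protein, had 41 and 7 counts in pair 1 and 21 and 2 in pair 2, and may take reads of its parent gene, so its log2FC of -2.32 (SE 0.60) is uncertain.

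Among the 7 genes called higher, 3 were well covered. Pik3c2a (ENSMUSG00000030660, chr7:116337265-116443449), a class II phosphoinositide 3-kinase of membrane traffic, was at 5.62 CPM in control 1 and 15.4 in lactate 1, and at 40.0 in control 2 and 76.2 in lactate 2, a log2FC of 1.16 (SE 0.31). Larp4 (ENSMUSG00000023025, chr15:99970065-100016358), which binds poly(A) tails, went from 20.5 to 43.6 CPM in pair 1 and from 79.6 to 144 CPM in pair 2, a log2FC of 0.97 (SE 0.27). Fam208b (ENSMUSG00000033799, chr13:3566035-3611108) went from 4.92 to 10.6 CPM in pair 1 and from 26.9 to 54.6 CPM in pair 2, a log2FC of 1.06 (SE 0.30). In each of these 3 genes the pairs differed from one another by more than lactate differed from control, so the groups overlap.

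The other 4 genes called higher had lower mean levels than these. Rabgap1l (ENSMUSG00000026721, chr1:160219174-160793211), a regulator of Rab GTPases, was at 3.28 and 9.28 CPM in the controls and 12.4 and 16.1 CPM with lactate, with a log2FC of 1.30 (SE 0.39). Dancr (ENSMUSG00000106943, chr5:74093060-74095406), a long noncoding RNA, was at 1.29 and 1.39 CPM in the controls and 7.38 and 3.24 CPM with lactate, with a log2FC of 1.89 (SE 0.53). Prkg1 (ENSMUSG00000052920, chr19:30564489-31765033), a cyclic GMP-dependent protein kinase, had 2 and 6 counts in the controls and 11 and 19 with lactate. Its ratio had a 95% exact counting interval of 1.64 to 69.96 in pair 1 and 1.79 to 14.3 in pair 2, which covers counting error only. The small nucleolar RNA Gm25636 (chr7:110023210-110023342) had 9 and 4 counts in the controls and 34 and 7 with lactate, and its interval in pair 2, 0.655 to 12.0, included 1. In these 4 genes both lactate libraries were above both controls.

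**Figure D2:**
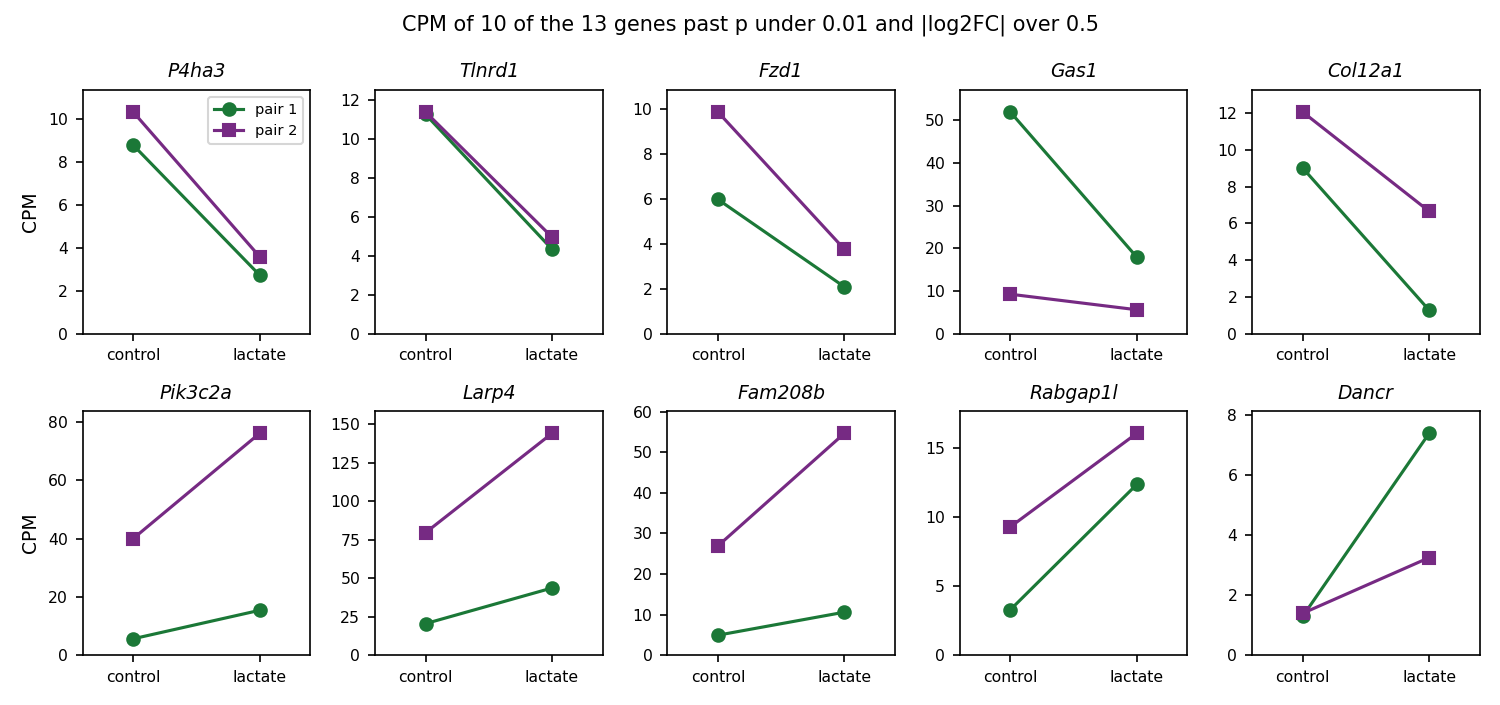
CPM (y axis, from 0) of 10 of the 13 called genes in control and lactate MB (x axis), with a line joining the libraries of each pair. The 5 lower genes lead, and the lines of Pik3c2a, Larp4 and Fam208b start at levels far apart, such as 5.62 and 40.0 CPM for Pik3c2a.

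Genes at 10 CPM or more that went the same way in both pairs were ranked by the smaller of their pairwise ratios in size. On the lower side the ranking was led by Plekhf2, Shb, Mmp15, Gm11223 and Rhob. Rhob, a small GTPase of endosomes, was at 101 and 37.2 CPM in the controls and 60.3 and 21.7 CPM with lactate, so that its log2 ratios were -0.74 and -0.77. Mmp15, a membrane-type matrix metalloproteinase, was at 31.8 and 14.7 CPM in the controls and 14.8 and 8.71 CPM with lactate (log2 ratios -1.10 and -0.74). Shb, a signalling adaptor, was at 13.8 and 13.5 CPM in the controls and 6.74 and 7.85 CPM with lactate, without overlap. On the higher side, after Pik3c2a, Fam208b and Larp4, came Plekho1 and Haghl. Plekho1 was at 8.31 and 5.45 CPM in the controls and 15.7 and 12.1 CPM with lactate, with both lactate libraries above both controls (log2FC 1.03, SE 0.33). Haghl was at 7.96 and 6.26 CPM in the controls and 14.8 and 11.3 CPM with lactate. None of these 7 genes passed the nominal threshold.

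Genes of sterol and fatty acid synthesis were mostly lower with lactate in both pairs. Of 27 listed and tested, 17 (63.0%) were lower in both pairs, against 23.2% of all genes, 1 was higher in both and 9 went opposite ways. Their median log2 ratio was -0.53 in pair 1 and -0.42 in pair 2, against medians of -0.01 and -0.02 over all genes. None passed the nominal threshold, 5 had an edgeR p under 0.05 on the lower side (0.771% of all genes) and 0 on the higher, and for 7 members both lactate libraries lay below both controls (7.95% of all genes). Over the list, the summed level was 3554 and 2235 CPM in the controls and 2140 and 1910 CPM with lactate.

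Enzymes that close and trim the sterol ring were among the members lower in both pairs. Lss, which folds squalene epoxide into lanosterol, was at 63.8 CPM in control 1, 40.8 in control 2, 38.8 in lactate 1 and 24.9 in lactate 2. Its log2 ratios were -0.71 and -0.70, and its log2FC was -0.71 (SE 0.28). Cyp51, which removes a methyl group from lanosterol, was at 119 and 112 CPM in the controls and 60.2 and 76.3 CPM with lactate, so both lactate libraries lay below both controls (log2FC -0.77, SE 0.27).

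Scd2, a fatty acid desaturase named after its values were seen, was also among the 5 with an edgeR p under 0.05 and was at 1055 and 447 CPM in the controls and 453 and 401 CPM with lactate. Insig1 and Sqle were lower in both pairs without overlap and are likewise named after the fact. Insig1, which retains the sterol sensor in the endoplasmic reticulum, was at 53.2 and 57.4 CPM in the controls and 28.7 and 45.8 CPM with lactate, and Sqle, squalene epoxidase, at 139.7 and 132 against 86.0 and 109 CPM.

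The list was not uniform. Hmgcs1, which makes the precursor of mevalonate, was at 53.2 and 54.2 CPM in pair 1 and 96.0 and 65.9 CPM in pair 2, control before lactate, so that only pair 2 was lower. Idi1, an isomerase of isoprenoid units, was at 9.25 and 21.3 CPM in pair 1 and 34.9 and 21.7 CPM in pair 2, and so went opposite ways. The count of 17 lower in both pairs was 17 with RLE factors and 19 after trends with GC content and length were removed. The medians were then -0.40 and -0.41, and 5 members, but 0 on the higher side, passed the nominal threshold. That fit called 84 of all genes lower, against 6 in the main fit, and estimated no separate spread for each gene.

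Genes of the unfolded protein response were also mostly lower in both pairs. The response is read by sensors in the membrane of the endoplasmic reticulum and raises chaperones such as BiP. Of 21 members, all tested, 13 (61.9%) were lower in both pairs, against 23.2% of all genes. Of the rest, 0 were higher in both and 8 went opposite ways, with 0 members at an edgeR p under 0.05. The median log2 ratio was -0.48 in pair 1 and -0.11 in pair 2, so the list was lower chiefly in pair 1. Lactate 1 was the lowest of the 4 libraries for 14 of the 21 (66.7%), against 30.1% of all genes. With RLE factors 10 members were lower in both pairs, and with GC and length trends removed 15.

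A control sequence known in promoters of this response is shown because 13 of the 21 members were lower in both pairs. Promoter windows of 250 bases before to 50 after each start (RefSeq, GRCm38.p6) were searched on both strands for the endoplasmic reticulum stress element, the letters CCAAT and CCACG with 9 bases between them. Of 18 members with a window, 8 held it, against 37 of 27025 genes in the windows searched (0.137%). It was in 7 of the 12 members with a window that were lower in both pairs, and in Hsp90b1, which was higher in pair 1 alone. A match is a description of letters and not a measured binding site. The list was made of genes of this response, in whose promoters the element is already known. Its share in the list against all genes therefore cannot tell whether lactate acted on them. Whether members with the element differed from those without it in their response to lactate was not tested. The 250 bases before the start of Hspa5 (chr2:34771840-34772089, plus strand) and Creld2 (chr15:88819396-88819645, plus strand) are given 5′ to 3′ with the element in capitals; in Creld2 it lies on the opposite strand.
Hspa5: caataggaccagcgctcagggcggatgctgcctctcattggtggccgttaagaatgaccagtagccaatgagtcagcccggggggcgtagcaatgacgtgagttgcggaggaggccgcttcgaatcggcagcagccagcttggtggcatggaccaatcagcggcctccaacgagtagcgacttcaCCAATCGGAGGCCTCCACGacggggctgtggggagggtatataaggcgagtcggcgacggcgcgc
Creld2: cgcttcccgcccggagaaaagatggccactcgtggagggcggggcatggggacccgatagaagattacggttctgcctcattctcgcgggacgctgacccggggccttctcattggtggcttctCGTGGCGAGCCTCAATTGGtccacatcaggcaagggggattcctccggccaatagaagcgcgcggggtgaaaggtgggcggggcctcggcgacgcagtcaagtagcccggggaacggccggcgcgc
The same element, read so that CCAAT comes before CCACG (both in capitals), is set out for the other 6 members that hold it, to show that the 9 bases between them differ while the ends are fixed by the search. For Hsp90b1, which has 2 matches, the upstream of them is shown.
Calr: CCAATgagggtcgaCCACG
Canx: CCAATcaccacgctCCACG
Dnajc3: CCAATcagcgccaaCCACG
Hsp90b1: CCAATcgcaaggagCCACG
Pdia6: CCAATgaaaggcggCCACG
Syvn1: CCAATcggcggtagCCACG

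Among these genes, Creld2, a disulfide isomerase of the endoplasmic reticulum, was at 79.4 and 77.9 CPM in the controls and 49.1 and 61.8 CPM with lactate, so that the groups did not overlap (log2 ratios -0.69 and -0.33, log2FC -0.51, SE 0.27). Hspa5, the BiP chaperone, was at 816 and 547 CPM in pair 1 and 1304 and 1185 CPM in pair 2, lower in each but by 1.49-fold in pair 1 and 1.1-fold in pair 2 (log2FC -0.36, SE 0.22). Its 95% interval, -0.86 to 0.14, included 0. Edem1, which marks misfolded glycoproteins for removal, was at 18.7 and 12.9 CPM in the controls and 8.66 and 10.1 CPM with lactate, also without overlap. Pdia3, another disulfide isomerase, was at 628 and 452 CPM in pair 1 and 1018 and 909 CPM in pair 2. The chaperone Hyou1 went against the list in pair 2, with 75.8 and 31.8 CPM in pair 1 and 36.6 and 79.4 CPM in pair 2, and Sel1l, a part of the degradation machinery, was lower in pair 1 alone.

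The sterol list had 1 match to its own regulator's letters in the same windows. The letters TCACNCCAC, a form of the element bound by sterol regulatory element-binding proteins, occurred in 1 of 17 members with a window, Hmgcs1, and in 388 of 27025 genes (1.44%). The list had 27 members tested, and those without a window were not searched. Of the 17 members lower in both pairs only 8 had a window, and 0 of these 8 held the letters. Whether the remaining lower members hold the letters is therefore unknown here. The stretch of Hmgcs1 is shown because it is the member that holds the letters while being lower in pair 2 alone (chr13:119690189-119690248, plus strand, the match in capitals).
Hmgcs1: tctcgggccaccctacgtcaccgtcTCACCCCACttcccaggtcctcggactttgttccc

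**Figure D3:**
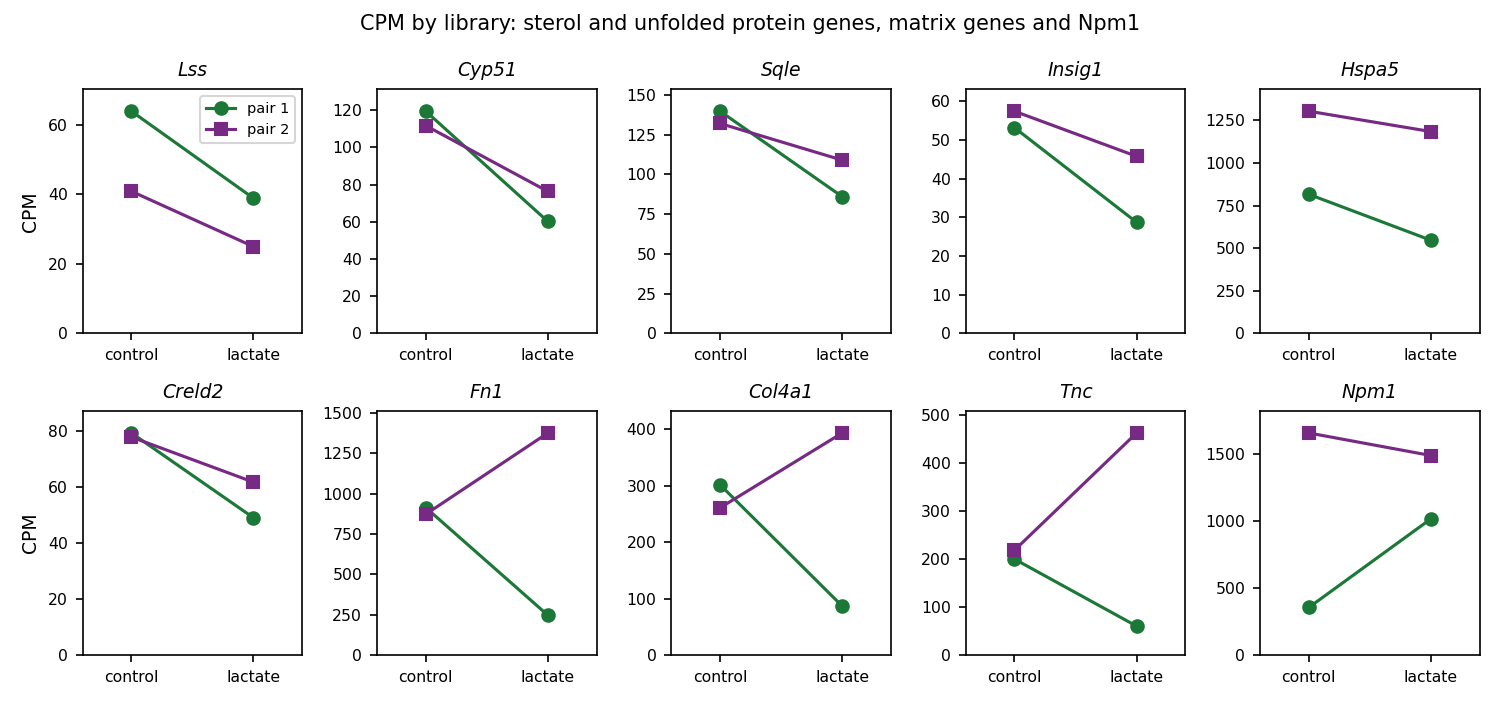
CPM (y axis, from 0) of 10 genes in control and lactate MB (x axis), with a line joining the libraries of each pair. Lss, Cyp51, Sqle, Insig1, Hspa5 and Creld2 were lower in both pairs; for the matrix genes Fn1, Col4a1 and Tnc the lines go down in pair 1 and up in pair 2, with lactate 1 lowest and lactate 2 highest, and Npm1 was far lower in control 1, at 355 CPM, than elsewhere.

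Heat shock proteins and chaperones of the cytosol and mitochondria were more often higher than lower. Of 18 tested, 8 (44.4%) were higher in both pairs, against 19.9% of all genes, 1 was lower in both and 9 went opposite ways, with a median log2FC of 0.12. The lean was chiefly that of pair 1, with 15 higher and 3 lower (median log2 ratio 0.24). Pair 2 had 10 higher and 8 lower (median 0.04). For 0 members did both lactate libraries lie above both controls (3.77% of all genes). Hspb2, a small heat shock protein of muscle, was at 12.997 and 4.64 CPM in the controls and 32.9 and 7.00 CPM with lactate (log2FC 1.01, SE 0.34, unadjusted edgeR p under 0.05). Cryab, a related chaperone, was at 83.3 and 46.0 CPM in the controls and 102 and 51.4 CPM with lactate, within the spread. Hsp90aa1 shows how much 1 library can decide: it was at 279 CPM in control 1 against 1199, 1601 and 1502 CPM in lactate 1, control 2 and lactate 2. Its log2 ratio was therefore 2.1 in pair 1 and -0.09 in pair 2. The inducible Hspa1a was at 3.75 and 1.39 CPM in the controls and 4.33 and 1.88 CPM with lactate.

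The amino acid arm of the stress response, driven by ATF4, was mixed. Of 29 members tested, 3 were higher in both pairs, 10 lower in both and 16 opposite. Atf4 itself was at 645 and 505 CPM in pair 1 and 265 and 290 CPM in pair 2, and its targets Asns, asparagine synthetase, and Ddit3, a pro-apoptotic factor, had log2FC values of -0.14 and -0.28. Cebpg, a partner of ATF4, was lower in both pairs, at 13.8 and 9.47 CPM in pair 1 and 21.8 and 16.7 CPM in pair 2. Gdf15, a secreted stress factor, was higher in pair 1 (27.3 and 43.8 CPM) and not in pair 2 (9.63 and 8.20 CPM).

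Antioxidant genes showed no common direction, with 5 of 25 higher in both pairs, 5 lower in both and 15 opposite. Srxn1, which repairs peroxiredoxins, and Gclm, a subunit of the first enzyme of glutathione synthesis, were lower in both. Srxn1 was at 37.4 and 36.4 CPM in the controls and 27.9 and 28.2 CPM with lactate, without overlap. The haem oxygenase Hmox1 was at 165 and 123 CPM in the controls and 167 and 105 CPM with lactate. The metallothioneins Mt1 and Mt2 were higher in pair 1 and lower in pair 2; Mt1 was at 103 and 116 CPM in pair 1 and 92.5 and 57.4 CPM in pair 2.

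Immediate early genes, which answer serum and other signals within minutes, were 6 higher in both pairs, 4 lower in both and 13 opposite of 23 tested. Both lactate libraries lay above both controls for 3 members and below both for 2. An unadjusted edgeR p under 0.05 was reached by 1 member on the higher side and 1 on the lower. Ier3 was at 25.9 and 16.004 CPM in the controls and 34.7 and 32.6 CPM with lactate, above both controls in both libraries (log2FC 0.72, SE 0.30, unadjusted edgeR p under 0.05). Fos was also above both controls, at 2.46 and 2.43 CPM against 2.73 and 4.27 CPM, at a level where the difference was not detectable. Egr1 went opposite ways, with 113 and 64.2 CPM in pair 1 and 88.0 and 95.8 CPM in pair 2. Of 11 inflammatory and interferon genes tested, 2 were higher in both pairs and 2 lower in both; the chemokine Cxcl12 was lower in pair 1 and higher in pair 2.

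More glycolytic genes were higher in both pairs than lower in both, by small amounts, but pair 1 taken alone had no lean in the main fit. In pair 1, 11 members were higher and 11 lower (median log2 ratio -0.03), and in pair 2, 15 were higher and 7 lower (median 0.10). With RLE factors the pair 1 median was 0.07, against 0.09 over all genes. With GC and length trends removed it was 0.14, against 0.02 over all genes. Of 22 enzymes and glucose transporters tested of 25 listed, 9 (40.9%) were higher with lactate in both pairs, against 19.9% of all genes, 5 were lower in both and 8 opposite, with a median log2FC of 0.11, 0 members at an edgeR p under 0.05 and none over 0.5 in both pairs. The muscle enolase Eno3 was at 472 and 349 CPM in the controls and 664 and 408 CPM with lactate (log2FC 0.36, SE 0.23). Gapdh was at 275 and 104 CPM in the controls and 314 and 122 CPM with lactate, and Hk1, the constitutive hexokinase, at 234 and 179 against 299 and 197 CPM. The groups overlap in all 3. Hk2, the inducible hexokinase, was lower in pair 1 (41.9 and 31.9 CPM) and higher in pair 2 (33.6 and 51.4 CPM). Pfkfb3, which makes an activator of phosphofructokinase, was at 18.4 and 9.30 CPM in pair 1 and 21.6 and 23.1 CPM in pair 2, and the glucose transporter Slc2a1 at 205 and 114 CPM in pair 1 and 117 and 121 CPM in pair 2.

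Of 21 genes of lactate and pyruvate handling tested, 4 were higher in both pairs, 5 lower in both and 12 opposite. Ldha, the muscle subunit of lactate dehydrogenase, was at 3082 and 2093 CPM in the controls and 3034 and 2024 CPM with lactate, and the 95% interval of its log2FC ran from -0.46 to 0.39. Ldhb, the heart subunit, was at 65.6 and 33.3 CPM in the controls and 66.4 and 36.5 CPM with lactate. Slc16a1, the monocarboxylate transporter MCT1, was lower in both pairs, at 106 and 66.7 CPM in pair 1 and 182 and 161 CPM in pair 2, with a 95% interval of the log2FC from -1.02 to 0.17. Pdk4, a kinase that shuts pyruvate dehydrogenase, behaved similarly, at 50.2 and 33.4 CPM in pair 1 and 138 and 120 CPM in pair 2 (log2FC -0.39, SE 0.27). The exporter Slc16a3 was at 5.97 and 2.67 CPM in the controls and 4.17 and 3.59 CPM with lactate. With GC and length trends removed Slc16a1 passed the nominal threshold (edgeR adjusted p = 0.774), in a fit that called 84 of all genes lower.

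Hypoxia-response genes were 3 higher in both pairs, 6 lower in both and 9 opposite of 18 tested. Egln3, a prolyl hydroxylase that tags hypoxia-inducible factor, was at 61.2 and 49.2 CPM in the controls and 36.9 and 34.3 CPM with lactate, without overlap (log2FC -0.62, SE 0.28). Ddit4, an inhibitor of growth signalling, was at 10.4 and 5.57 CPM in the controls and 15.6 and 9.39 CPM with lactate (log2FC 0.66, SE 0.33). Vegfa was at 3.98 and 3.25 CPM in the controls and 3.85 and 3.24 CPM with lactate. Txnip and Arrdc4, glucose-sensing arrestins, were below 5 CPM throughout.

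Of 20 candidate lactylation enzymes, all tested, 3 were higher in both pairs, 1 was lower in both and 16 went opposite ways. The list holds candidate writers and erasers of the histone mark and also the metabolic enzymes Acly, Acss2, Glo1 and Hagh. The deacetylase Hdac3 was at 191 and 147 CPM in the controls and 209 and 160 CPM with lactate, a log2 ratio of 0.13 in each pair, within the spread. Hdac1 was at 96.6 and 99.3 CPM in the controls and 102 and 104 CPM with lactate. The acetyltransferases Ep300 and Crebbp went opposite ways. Ep300 was at 29.9 and 12.2 CPM in pair 1 and 21.2 and 25.1 CPM in pair 2, and Crebbp at 46.3 and 16.8 CPM in pair 1 and 57.2 and 67.3 CPM in pair 2.

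**Figure D4:**
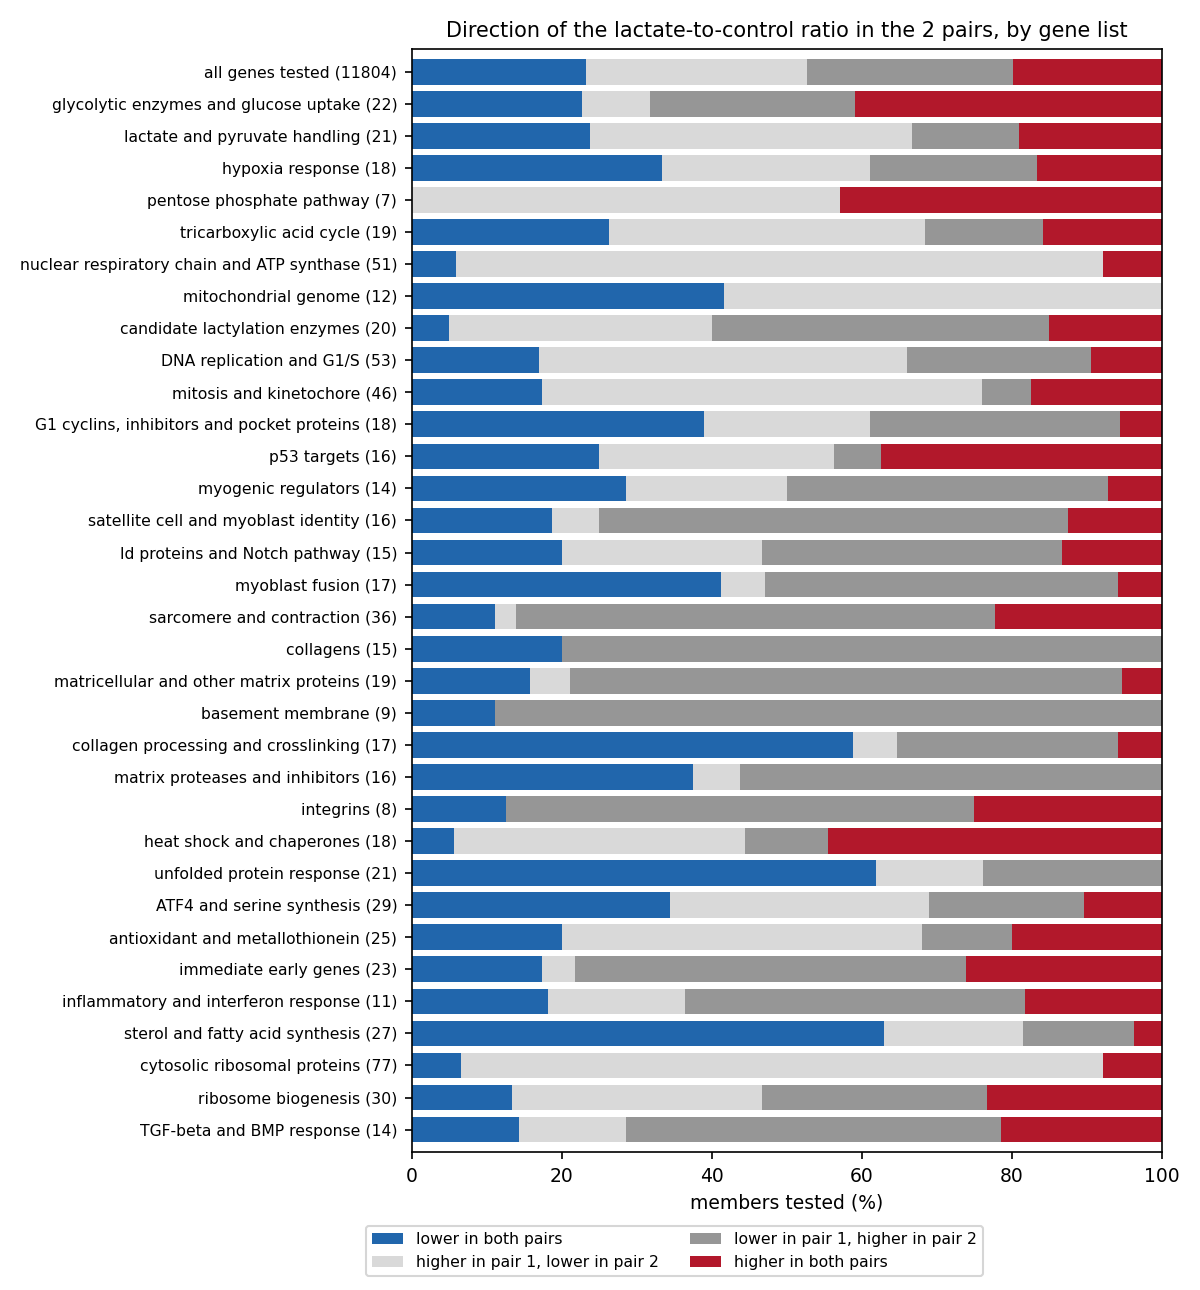
Bars give, for all genes tested and for each list with at least 7 members tested (number in brackets), the percentage of members lower in both pairs, higher in both, or opposite, along the x axis. The sterol list (63.0% lower in both) and the unfolded protein response have the widest share lower in both pairs among the stress and metabolic lists. Collagens, basement membrane, matrix proteases and inhibitors, the unfolded protein response and the mitochondrial genome have no member higher in both.

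In matrix genes the pairs disagreed. Of 15 collagen genes tested of 22 listed, 12 were lower in pair 1 and higher in pair 2, 3 were lower in both and 0 higher in both. Their median log2 ratio was -1.33 in pair 1 and 0.34 in pair 2. Lactate 1 was the lowest of the 4 libraries for 14 of the 15 (93.3%), against 30.1% of all genes. The summed collagen level was 1695 and 1325 CPM in the controls, 633 CPM in lactate 1 and 1721 CPM in lactate 2. With GC and length trends removed the medians were -0.96 and 0.17, so the disagreement between pairs held.

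Col4a1, a chain of the basement membrane network, was at 302 and 87.0 CPM in pair 1 and 261 and 394 CPM in pair 2. Col3a1, a fibrillar chain, was at 449 and 154 CPM in pair 1 and 223 and 263 CPM in pair 2, and Col5a1, which starts fibrils, at 90.4 and 25.2 CPM in pair 1 and 68.4 and 79.9 CPM in pair 2. Their log2FC values of -0.59, -0.66 and -0.79 were means of opposite differences. Col1a1 was at 8, 1, 4 and 5 counts in control 1, lactate 1, control 2 and lactate 2, and Postn had at most 6 counts, so neither was tested.

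The basement membrane list followed the collagens, with 8 of 9 members lower in pair 1 and higher in pair 2. Hspg2, the proteoglycan perlecan, was at 255 and 68.0 CPM in pair 1 and 75.4 and 88.6 CPM in pair 2. The 1 member lower in both pairs was Nid1, which links laminin to collagen, at 122 and 48.6 CPM in pair 1 and a nearly level 87.8 and 86.9 CPM in pair 2. Of 19 matricellular and other matrix proteins, 14 were lower in pair 1 and higher in pair 2. Fn1, fibronectin, was at 914 and 247 CPM in pair 1 and 872 and 1375 CPM in pair 2, and Tnc, tenascin-C, at 200 and 60.5 CPM in pair 1 and 218 and 462 CPM in pair 2. Spp1, osteopontin, was the exception that was higher in both pairs, at 2030 and 3138 CPM in pair 1 and 5173 and 6005 CPM in pair 2 (log2FC 0.42, SE 0.19). Ccn2 and Ccn1, matricellular targets of mechanical signalling, were lower in pair 1 and higher in pair 2; Ccn1 was at 440 and 370 CPM in pair 1 and 493 and 634 CPM in pair 2.

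Of 17 enzymes and chaperones that process collagen, 10 were lower in both pairs (23.2% of all genes), 1 was higher in both and 6 went opposite ways, and for 6 members both lactate libraries lay below both controls (7.95% of all genes). The called gene P4ha3 was not on this list. P4ha1, the commoner catalytic subunit of prolyl 4-hydroxylase, was at 131 and 142 CPM in the controls and 63.0 and 130 CPM with lactate (log2 ratios -1.05 and -0.13). Loxl3, a crosslinking oxidase, was at 119 and 99.0 CPM in the controls and 67.5 and 87.3 CPM with lactate, also without overlap. The median of this list was -0.69 in pair 1 and -0.06 in pair 2, so pair 2 moved little. Of 16 matrix proteases and inhibitors, 6 were lower in both pairs and 9 lower in pair 1 alone. Mmp14, a membrane-type metalloproteinase, was at 91.4 and 29.5 CPM in pair 1 and 30.4 and 29.0 CPM in pair 2. Of 8 integrins, 5 were lower in pair 1 and higher in pair 2.

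Myogenic regulators did not move together. Of 14 tested of 18 listed, 1 was higher with lactate in both pairs, 4 lower in both and 9 opposite. The 1 higher in both was Myod1, with log2 ratios of 0.18 and 0.17 and a 95% interval of its log2FC from -0.29 to 0.64. Myog, the factor that starts differentiation, was at 81.3 and 78.0 CPM in pair 1 and 35.7 and 39.8 CPM in pair 2, with an interval from -0.57 to 0.66. Myf5 was at 26.3 and 30.5 CPM in the controls and 31.6 and 29.5 CPM with lactate. The partners of MyoD, Tcf3 and Tcf12, were lower in both pairs. Tcf12 was at 36.2 and 40.7 CPM in the controls and 22.3 and 32.6 CPM with lactate, without overlap (log2FC -0.51, SE 0.29). Mef2c had too few counts to test, its level reaching at most 1.29 CPM.

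Markers of satellite cells and MB identity were mostly lower in pair 1 and higher in pair 2, which held for 10 of 16 tested. Pax7, the satellite cell factor, was at 24.0 and 14.1 CPM in pair 1 and 19.8 and 29.5 CPM in pair 2. Ncam1, an adhesion molecule of muscle precursors, was at 78.9 and 28.7 CPM in pair 1 and 146 and 187 CPM in pair 2. Vcam1, an adhesion molecule, was lower in both pairs, at 179 and 216 CPM in the controls and 132 and 178 CPM with lactate, without overlap, and Cd34, a progenitor antigen, was above both controls, at 31.5 and 21.2 against 36.4 and 32.1 CPM. Of 15 genes of the Id proteins and the Notch pathway, 2 were higher in both pairs, 3 lower in both and 10 opposite. Hes1, a Notch target, was at 49.2 and 38.7 CPM in pair 1 and 33.7 and 22.7 CPM in pair 2 (log2FC -0.46, SE 0.29). Id1 and Id3, which hold back MyoD, had log2FC values of -0.02 and 0.12.

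Of 17 fusion genes tested, 7 were lower in both pairs, 1 higher in both and 9 opposite. Mymk, the membrane activator of fusion, was at 39.9 and 38.0 CPM in pair 1 and 13.5 and 16.2 CPM in pair 2. Cdon, a cell-surface promoter of myogenesis, was at 59.7 and 32.5 CPM in the controls and 27.9 and 28.5 CPM with lactate, below both controls (log2FC -0.65, SE 0.32).

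Sarcomere and contraction genes were more often higher in pair 2 than in pair 1. Of 36 tested of 51 listed, 8 were higher in both pairs, 4 lower in both, 23 higher in pair 2 alone and 1 higher in pair 1 alone, and the median log2 ratio was -0.19 in pair 1 and 0.35 in pair 2. Actn3, the Z-disc actinin of fast fibres, was at 22.6 and 11.1 CPM in the controls and 52.0 and 16.4 CPM with lactate (log2FC 0.90, SE 0.31, unadjusted edgeR p under 0.05). Tnnt2, the cardiac troponin T that immature muscle also makes, was at 54.7 and 61.9 CPM in pair 1 and 75.7 and 124 CPM in pair 2 (log2FC 0.45, SE 0.28). Acta1, skeletal actin, was at 52.3 and 47.0 CPM in pair 1 and 28.2 and 45.9 CPM in pair 2, and Myh3, embryonic myosin heavy chain, at 11.7 and 3.85 CPM in pair 1 and 8.35 and 14.9 CPM in pair 2. For scale, with the 6 cultured libraries scaled together the 2 myotube (MT) libraries held 7069 and 4800 CPM of Acta1 and 1514 and 3826 CPM of Myh3, while the MB controls held 58.7 and 27.8 CPM of Acta1 and 13.1 and 8.25 CPM of Myh3. On the 4-library scale the lactate libraries held at most 47.0 CPM of Acta1 and 14.9 CPM of Myh3.

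Of 133 cell-cycle genes tested, 85 (63.9%) went opposite ways, near the 56.9% of all genes. Of 53 genes of DNA replication and the G1 to S step, 5 were higher in both pairs, 9 lower in both and 39 opposite, with a median log2FC of 0.00. Mcm2, a subunit of the replicative helicase, was at 364 and 266 CPM in the controls and 331 and 280 CPM with lactate. Pcna, the replication clamp, was at 251 and 276 CPM in the controls and 269 and 219 CPM with lactate. Rrm1, a subunit of ribonucleotide reductase, was lower in both pairs, at 497 and 433 CPM in pair 1 and 621 and 529 CPM in pair 2, but within the spread. Ccne2, a cyclin of S-phase entry, was at 10.4 and 38.2 CPM in pair 1 and 108 and 81.3 CPM in pair 2.

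Of 46 mitosis and kinetochore genes, 27 were higher in pair 1 and lower in pair 2, 8 were higher in both and 8 lower in both. Control 1 was the lowest of the 4 libraries for 26 of the 46 (56.5%), against 25.8% of all genes. The condensin subunit Smc4 was at 30.6 and 119 CPM in pair 1 and 272 and 242 CPM in pair 2, and the proliferation antigen Mki67 at 28.7 and 44.6 CPM in pair 1 and 119 and 102 CPM in pair 2. Foxm1, the factor that drives mitotic genes, was lower in both pairs without overlap, at 68.7 and 43.3 CPM in the controls and 38.2 and 29.7 CPM with lactate (log2FC -0.70, SE 0.29, unadjusted edgeR p under 0.05). Cenpe, a kinetochore motor, was higher in both, at 11.2 and 38.0 CPM in pair 1 and 97.4 and 118 CPM in pair 2 (log2FC 0.97, SE 0.37, unadjusted edgeR p under 0.05). Ccnb1 and Cdk1, which form the mitotic kinase, had log2FC values of 0.05 and -0.08.

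Of 18 G1 cyclins, inhibitors and pocket proteins, 7 were lower in both pairs, 1 higher in both and 10 opposite. Ccnd1, cyclin D1, was at 1071 and 920 CPM in pair 1 and 626 and 551 CPM in pair 2 (log2FC -0.20, SE 0.21). Cdkn2b, an inhibitor of G1 kinases, was at 61.7 and 58.0 CPM in the controls and 55.2 and 45.2 CPM with lactate. Cdkn1a, the inhibitor p21 that also rises as MB differentiate, was at 408 and 542 CPM in pair 1 and 262 and 241 CPM in pair 2. Among 16 p53 targets, 6 were higher in both pairs and 4 lower in both.

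Genes of energy supply and translation also differed between pairs, with pair 1 on the higher side. Of 77 cytosolic ribosomal protein genes tested, 66 were higher with lactate in pair 1 and lower in pair 2, 6 were higher in both and 5 lower in both, with medians of 0.35 and -0.15. Of 51 nuclear genes of the respiratory chain and ATP synthase, 44 were higher in pair 1 and lower in pair 2, with medians of 0.37 and -0.24. Rps14 was at 1795 and 3351 CPM in pair 1 and 981 and 815 CPM in pair 2. Uqcrb, a subunit of complex III, was at 41.3 and 110 CPM in pair 1 and 116 and 92.9 CPM in pair 2.

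The 12 tested genes of the mitochondrial genome were lower in both pairs for 5 and higher in pair 1 alone for 7, and 0 were higher in both. mt-Nd2, a subunit of complex I, was at 206 and 143 CPM in pair 1 and 366 and 266 CPM in pair 2 (log2FC -0.49, SE 0.24). mt-Nd1 was at 882 and 1164 CPM in pair 1 and 4384 and 3238 CPM in pair 2. The summed level of the 12 was 2697 and 2917 CPM in pair 1 and 13355 and 9651 CPM in pair 2. The list holds protein-coding genes only. All mitochondrial reads made up 1.18% of counts in control 1 and 2.15% in lactate 1, and 3.12% in control 2 and 2.47% in lactate 2. With GC and length trends removed 9 of the 12 were lower in both pairs and 5 passed the nominal threshold, as did 84 of all genes on the lower side. The medians, however, were then -1.14 and -0.12 where they had been 0.17 and -0.45. These transcripts had a median GC content of 37.4%, at the low end of the range. Of 19 genes of the tricarboxylic acid cycle, 3 were higher in both pairs and 5 lower in both, and of 7 genes of the pentose phosphate pathway 3 were higher in both and 4 in pair 1 alone.

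Other growth lists were as mixed. Of 30 ribosome biogenesis genes, 7 were higher in both pairs, 4 lower in both and 19 opposite, and Npm1, a nucleolar chaperone, was at 355 and 1015 CPM in pair 1 and 1655 and 1487 CPM in pair 2. Of 14 genes of the TGF-beta and BMP response, 3 were higher in both, 2 lower in both and 9 opposite. Grem1, an antagonist of BMP ligands, was above both controls, at 86.4 and 112 CPM in the controls and 131 and 137 CPM with lactate (log2FC 0.45, SE 0.26). Ltbp2, a matrix protein related to the carriers of TGF-beta, was below both controls, at 16.3 and 11.4 CPM in the controls and 7.22 and 8.88 CPM with lactate.

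The direction in each pair also varied with the GC content and the length of the transcripts. In the eighth of genes with the lowest GC content in their exons the median log2 ratio was 0.64 in pair 1 and -0.10 in pair 2, and in the fourth eighth it was -0.20 and 0.00. By exonic length the medians ran from 0.30 in the shortest eighth to -0.23 in the longest in pair 1, and from -0.19 to 0.09 in pair 2. The median exonic length was 1781 bases for ribosomal protein genes and 8490 for collagens, against 4386 over all genes tested. The list of DNA replication and the G1 to S step, with 39 of 53 members opposite, had a median of 4097 bases. The sterol list lay near the middle, with a median length of 4866 bases and a median GC content of 50.0%, against 49.9% over all genes. A middle position is not neutral in pair 1. The GC eighth that holds 50.0% had medians of -0.19 in pair 1 and -0.01 in pair 2. The list had medians of -0.53 and -0.42, and -0.40 and -0.41 with both trends removed. With both trends removed 22 ribosomal protein genes were higher in both pairs and 4 lower in both, where 6 and 5 had been, and the medians were 0.26 and -0.06. Under that fit 68 genes were called higher and 84 lower, and 12 of the 13 genes called before were among them. It took the spread of each gene wholly from the other genes, with infinite borrowed degrees of freedom against 8.51 in the main fit. Its calls are therefore not on the same footing as those of the main fit. Whether GC content and length trends arose in the culture or in making the libraries cannot be told apart here.

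**Figure D5:**
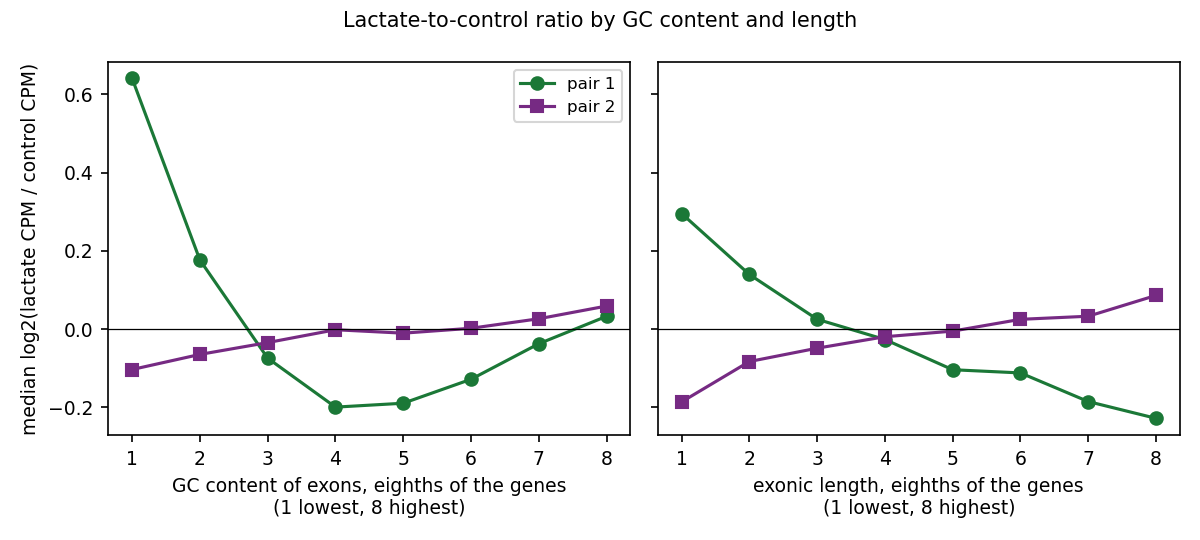
The y axis gives the median log2 ratio of lactate to control CPM, per pair, in eighths of the 11804 genes ordered by exonic GC content (left x axis) or exonic length (right x axis). Pair 1 falls from 0.64 to -0.20 over the 4 lowest GC eighths and from 0.30 to -0.23 with length, and pair 2 runs the other way with length, from -0.19 to 0.09.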

How the data were processed

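RNA of mouse primary MB was profiled by Smart-seq2. The submitters' processing notes name FastQC 0.11.0, Trim Galore 0.6.6, HISAT2 2.2.1, Subread 2.0.1 and build mm10; the annotation release, strand setting and treatment of multimapped reads are not given in the sources used here. The deposited values are raw counts per Ensembl gene, which the authors made per library without normalization; the tables pair each ID with no other measure, and 0 rows named no gene. Of 46078 genes, 45229 were found in GENCODE M21, used for symbols, coordinates, exonic length and GC content.

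Counts of the 4 libraries were filtered with filterByExpr, scaled by TMM and fitted in edgeR 4.0.16 (quasi-likelihood F test, R 4.3.3) with lactate and replicate number as terms. CPM are TMM-scaled. Pairs come from the shared replicate number in the labels, as the comparison was set up by number; deviations of same-numbered libraries from their group means correlated at r = 0.71 across genes, while the labels state no shared culture, so p-values measure only the spread between these libraries. Named genes are the called genes (at most 10 a side by p), for each of 33 functional lists up to 3 members alike and 2 opposite in the pairs at 10 CPM or more, a panel, and 5 genes a side alike in both pairs over all genes. Members and lists were chosen with earlier results of these data known. The fit was tested on simulated data. Alternatives were no block, RLE factors, DESeq2 1.42.0, the likelihood ratio test, other filters and thresholds, all 6 cultured libraries, no rRNA genes, GC and length offsets, and leaving libraries out. Gastrocnemius libraries were not used, and MT libraries only for scale and in 1 alternative. Intervals of count ratios cover counting error only, and those of log2FC come from the edgeR fit. Tables and figures were made with Python 3 and matplotlib. Some items of the lists and panel are not reported here.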

Additional observations from a re-analysis of the deposited data

How the results depend on the processing

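With 2 libraries a group, the counts of called genes moved with most choices, and the cause was not tested except where stated. Against 7 genes higher, 6 lower and 0 at an adjusted p under 0.05 by edgeR with the replicate block, the fit with no replicate block gave 0, 0 and 0 (5 genes at an unadjusted p under 0.05), and DESeq2 gave 2, 0 and 0. RLE factors gave 15 higher, the likelihood ratio test 18 higher and 21 lower, no filter on low counts 75 higher, 37 lower and 2 adjusted, a minimum of 10 counts in each library 4 higher, all 6 cultured libraries 2 higher and 0 lower, GC and length offsets 68 higher, 84 lower and 4 adjusted, and a p under 0.05 with the log2FC limit kept 74 higher and 91 lower. Leaving out 1 library, which requires a fit without the block and assumes that the lone library varies like the other group, gave 1 to 176 higher, 0 to 1 lower and 0 to 2 adjusted: 19, 0 and 2 without control 1, 176, 1 and 0 without control 2, 1, 0 and 0 without lactate 1, and 2, 0 and 0 without lactate 2. Pik3c2a, Larp4 and Fam208b then reversed to -0.57, -0.20 and -0.59 without lactate 2, and Gas1 to 0.46 without control 1, since the pairs sit at different levels. All 13 called genes were called with RLE factors, with the likelihood ratio test and with no filter, and 12 with GC and length offsets, but 8 of the 9 tested at a minimum of 10 counts, 2 with DESeq2, 1 with all 6 cultured libraries and 0 with no block. The count of genes higher in both pairs was 4401 with no filter, and 135 higher and 183 lower passed 0.5 in both. Of the list medians, 494 of the values under alternatives moved by less than the spread between pairs and 106 by more. Depth limits genes under about 10 CPM most.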
